A study of Mus musculus with 18 samples.

Results

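The 10 genes described here encode chaperones and proteases that keep the proteins of mitochondria folded and turned over. They are the chaperones Hspd1, Hspe1, Hspa9, Trap1 and Dnaja3 and the proteases or protease subunits Lonp1, Clpp, Clpx, Afg3l2 and Yme1l1. They were chosen by symbol from the 23420 rows of a table of RNA-sequencing counts, and all 10 were found there. The libraries came from NIH-3T3 cells, an established line of mouse embryonic fibroblasts, either wild-type (WT) or with Nrf1 knocked out by CRISPR/Cas9 (Nrf1-KO). Both lines received DMSO, the vehicle, or 200 nM carfilzomib (CFZ), an inhibitor of the proteasome, for 6 h or 24 h, with 3 biological replicates in each of the 6 groups and 18 libraries in all. The labels give no time for DMSO. The Nrf1-KO cells are a single line, so that genotype and line cannot be told apart. The comparison of the lines addresses how the loss of Nrf1, the transcription factor that raises proteasome genes after proteasome inhibition, changes the response to CFZ.

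Most mitochondrial proteins are made in the cytosol and imported unfolded. In the matrix they are pulled in and folded by mtHSP70 (Hspa9) with J-proteins such as Dnaja3, and by the chaperonin HSP60 (Hspd1), a barrel that is closed by its lid HSP10 (Hspe1). Trap1 is the HSP90 of mitochondria. Proteins that fail to fold are degraded by ATP-dependent proteases, which are LONP1 and the CLPXP complex in the matrix, the m-AAA protease with its subunit AFG3L2 on the matrix side of the inner membrane, and the i-AAA protease YME1L1 on the other side of that membrane. In CLPXP, CLPX unfolds the substrate and CLPP cuts it. Several of these genes, Hspd1 and Hspe1 among them, are known as markers of the mitochondrial unfolded protein response, a rise in nuclear transcripts that follows protein stress in the organelle.

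Total counts per library ranged from 8333148 to 23917081, and all 10 genes passed the filter on low counts, which left 11762 genes. Their lowest count in any library was 277, for Clpp, and the highest 40263, for Hspd1. Levels are given as CPM, the counts scaled to a common library size with edgeR's TMM factors, so each is a share of the RNA in its library. In bulk RNA, fewer cells of a type and less RNA per cell cannot be told apart. Nfe2l1, the gene of the factor called Nrf1 here, stood at 437.3 to 456.9 CPM in WT DMSO and at 174.3 to 184.6 CPM in Nrf1-KO DMSO, and the log2 difference was -1.31 (SE 0.034, adjusted p = 1.6e-24 by edgeR's quasi-likelihood test with Benjamini-Hochberg adjustment, as for every adjusted p below). Every Nrf1-KO library was also below the WT libraries at each time of CFZ, by -0.62 (SE 0.033) at 6 h and -1.47 (SE 0.034) at 24 h on the log2 scale. The gap was smaller at 6 h, where Nfe2l1 rose 2.32-fold in Nrf1-KO cells, to 413.5 to 427 CPM, against 1.43-fold in WT. At 24 h it stood at 201.4 to 209.5 CPM in Nrf1-KO cells. Of 12 fibroblast markers 11 passed the filter, and Lum did not, with at most 5 counts. The summed level of the 12 went from 34300 to 37100 CPM in WT DMSO to 9130 to 9380 CPM at 24 h of CFZ, and in the Nrf1-KO cells from 28900 to 35100 CPM to 12100 to 14100 CPM. The summed level of 6 epithelial markers, most of it Cdh1, went from 5.96 to 6.5 CPM to 0.42 to 0.813 CPM in WT and from 10.8 to 13 CPM to 0.352 to 0.761 CPM in Nrf1-KO cells at 24 h, and Epcam, Krt18 and Cldn4 had no count. The summed level of 7 haematopoietic markers, most of it Cd14, went from 8.27 to 8.82 CPM to 30.9 to 33.5 CPM in WT and from 11.1 to 13 CPM to 58.4 to 59.7 CPM in Nrf1-KO cells at 24 h, while Cd3e had no count. For 5 endothelial markers the sum went from 0.827 to 1.22 CPM to 3.66 to 4.28 CPM in WT and from 1.08 to 1.58 CPM to 4.69 to 5.05 CPM in Nrf1-KO cells. The part of these markers in the results below was not tested.

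Hspd1 and Hspe1 lie head to head on chromosome 1 of GRCm38, Hspd1 on the minus strand from 55077835 to 55088243 and Hspe1 on the plus strand from 55088132 to 55091307. In RefSeq's table for GRCm38.p6 their starts at 55087932 and 55088148 are separated by 215 bases, and Hspd1 has another start at 55088243. The stretch between the starts is shown because these were the genes with the largest rises among the 10. It holds 4 heat shock repeats, the units TTC and GAA in alternating direction that heat shock factors are known to bind, in an unbroken run of 18 bases, which stands in capitals on the plus strand at chr1:55088053-55088082.
Hspe1-Hspd1 heat shock repeats: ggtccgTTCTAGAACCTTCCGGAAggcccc
The run ends 71 bases before the Hspe1 start and lies 126 bases from the Hspd1 start at 55087932, between the starts of both genes. A run of 4 such units, spelled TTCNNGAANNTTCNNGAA or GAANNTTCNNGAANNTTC on either strand, was found in 8 of 32851 promoter windows of 300 bases in the RefSeq table (0.0244%). Counted by gene, with a match in any of its windows, this was 8 of 27025 genes (0.0296%). A run of 3 units, spelled TTCNNGAANNTTC or GAANNTTCNNGAA and contained in any run of 4, was found in 0.603% of windows, for 0.662% of genes. Of the 8 mitochondrial genes with a window in the table, Hspd1 and Hspe1 alone held either, and the same run was counted for both. Among 11 relatives of the chaperones from the cytosol or endoplasmic reticulum with a window, none held either. The search took only exact units without a gap, so runs with a changed base or a gap were not counted in any gene. All 11 relatives rose with CFZ in both lines at both times. The shorter TTCNNGAA or GAANNTTC was in 15.1% of windows, and Clpp held it beside Hspd1 and Hspe1, as did 5 of the 11 relatives. TGACNNNGC, the core of the antioxidant response element, was in 12.4% of windows, for 14.0% of genes. Of the 8 mitochondrial genes Lonp1 held it, and so did 4 of the 11 relatives (Dnaja2, Dnajb1, Cct2 and Tcp1). TGATGNAA, the form of CARE searched, a C/EBP-ATF response element, was in 3.97% of windows, for 4.51% of genes, and in none of the 8. TGCAAT, searched as a core of C/EBP-like sites, was in 8.4% of windows, for 9.67% of genes, and in the windows of Hspd1 and Hspe1. The windows of these 2 genes overlap, so a single site could be counted for both. These matches describe letters in a window. Binding was not measured, and the part of the matches in the rises was not tested.

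CFZ raised the mRNA of all 10 genes in the WT cells at 6 h, but the sign for Trap1 flipped under 2 other scalings, by upper quartile and by library size alone. Hspd1 and Hspe1 rose at least 2-fold, as did 468 of 11762 genes, while 9.63% of all genes changed so in either direction. Among all genes tested 35.6% were called higher in this comparison and 36.2% lower. The median log2 fold change was 0.39 for the 10 genes and -0.02 for all genes. At 24 h in WT, 8 rose and 2 were not called, with none lower by edgeR with TMM scaling, at an unadjusted p under 0.05 or by DESeq2. With upper-quartile scaling 2 were lower, and with library size alone, without the filter or with the compared groups only 1 was. Leaving out WT DMSO replicate 1 or WT 24 h replicate 3 also gave 1 lower. Of all genes 43.2% were higher and 40.5% lower in this comparison, and the median was 0.49 for the 10 genes against 0.02. Hspe1 was past 2-fold there, as were 1234 of 11762 genes upward and 25% of all genes in either direction. For the Nrf1-KO line 6 rose, 1 fell and 3 were not called at 6 h, against 34.5% higher and 35% lower of all genes, with a median of 0.22 against -0.01, though the sign of Yme1l1, counted as risen, flipped with library size alone. Hspd1 and Hspe1 were again past 2-fold, as were 388 of 11762 genes upward and 7.56% of all genes in either direction. By 24 h the Nrf1-KO cells had 6 genes higher and 2 lower, against 44.4% and 41.1% of all genes, with a median of 0.24 against 0.03. Hspd1 and Hspe1 were past 2-fold, as were 1347 of 11762 genes upward and 26.7% of all genes in either direction. The comparisons at 6 h and 24 h share their DMSO libraries, and the comparisons of the lines' responses at 6 h and at 24 h share the DMSO libraries of both lines.

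The chaperonin pair had the largest rises. For Hspd1, the WT libraries stood at 628.7, 670.3 and 625 CPM in DMSO, at 2355, 2300 and 2247 CPM at 6 h, and at 1251, 1294 and 1287 CPM at 24 h. The Nrf1-KO libraries stood at 683.8, 662.7 and 683.9 CPM in DMSO, at 2954, 2978 and 3075 CPM at 6 h, and at 1989, 2085 and 2066 CPM at 24 h. Hspd1 was highest at 6 h in both lines, came down by 24 h without reaching the DMSO level, and in CFZ every Nrf1-KO library was above every WT library of the same time. The log2 fold change against DMSO was 1.84 (SE 0.035, 3.59-fold, adjusted p = 5.5e-29) in WT and 2.15 (SE 0.035, 4.44-fold, adjusted p = 1.2e-30) in Nrf1-KO cells at 6 h. At 24 h it was 0.99 (SE 0.034, adjusted p = 1.3e-22) in WT and 1.60 (SE 0.034, adjusted p = 4.3e-28) in Nrf1-KO cells. From 6 h to 24 h Hspd1 fell by 0.85 on the log2 scale in WT and by 0.55 in Nrf1-KO cells. The Nrf1-KO response exceeded the WT response by 0.31 (SE 0.048, adjusted p = 4.5e-06) at 6 h and by 0.60 (SE 0.048, adjusted p = 2.1e-12) at 24 h. In DMSO the lines overlapped, with a log2 difference of 0.08 (95% interval 0.01 to 0.15, adjusted p = 0.053), which was called higher in the Nrf1-KO cells without WT DMSO replicate 2 (0.11) or without Nrf1-KO DMSO replicate 2 (0.09).

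Hspe1 rose as well but had a different course. The WT libraries stood at 165.9, 171.1 and 163 CPM in DMSO, at 410.2, 391.8 and 380.7 CPM at 6 h, and at 452.9, 460.9 and 468 CPM at 24 h. Those of the Nrf1-KO line stood at 155.2, 157.2 and 157.7 CPM in DMSO, at 462.3, 477.5 and 489.2 CPM at 6 h, and at 548.2, 612.8 and 659.6 CPM at 24 h. Every 24 h library was above every 6 h library of its line. The log2 fold change against DMSO was 1.24 (SE 0.046, adjusted p = 3.1e-21) at 6 h and 1.47 (SE 0.046, adjusted p = 8.9e-24) at 24 h in WT. In Nrf1-KO cells it was 1.60 (SE 0.046, adjusted p = 5.3e-24) and 1.95 (SE 0.045, adjusted p = 3.8e-27). From 6 h to 24 h Hspe1 rose by 0.23 in WT (adjusted p = 3.2e-05) and by 0.35 in Nrf1-KO cells (adjusted p = 1.2e-08), the interval in which Hspd1 fell. The Nrf1-KO response was larger by 0.36 (SE 0.064, adjusted p = 3.3e-05) at 6 h and by 0.49 (SE 0.063, adjusted p = 8.4e-08) at 24 h. Of the exonic bases of Hspe1, 7.6% overlap Hspd1 on the opposite strand, and 19.1% of the read-length stretches of Hspd1 and 8.37% of those of Hspe1 also occur in pseudogenes or other annotated transcripts, so some reads of both genes could have been assigned elsewhere.

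**Figure D1:**
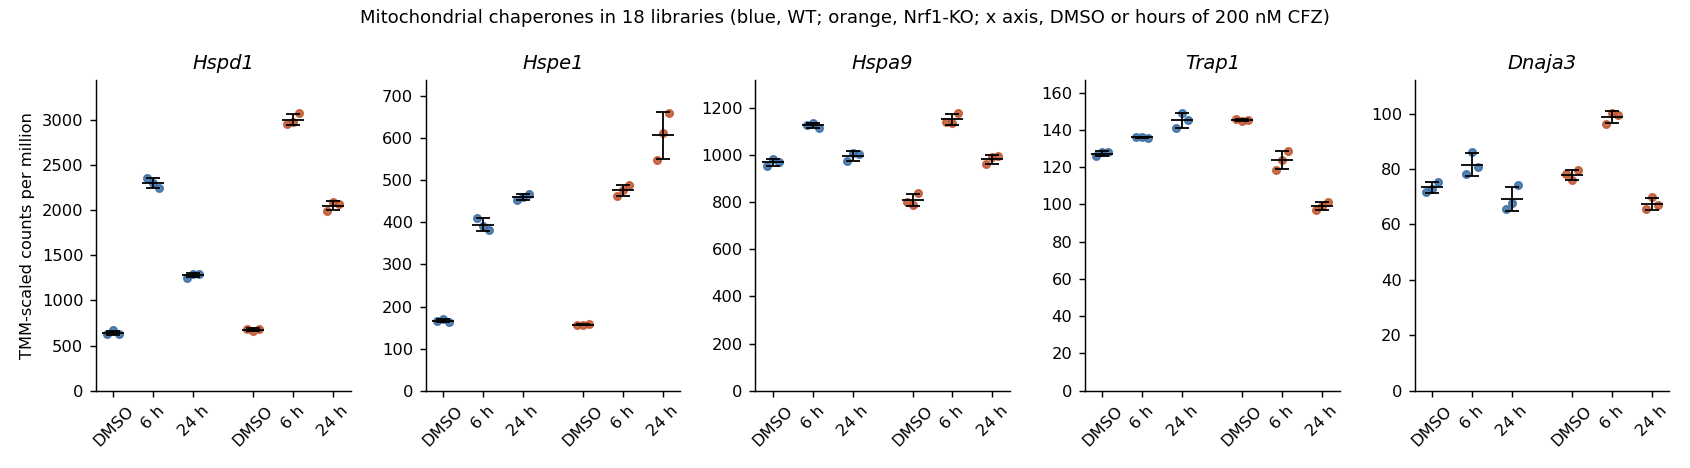
TMM-scaled CPM (y axes, from 0) of the 5 mitochondrial chaperones in each of the 18 libraries, by line and treatment (x axes). Points are libraries and bars the mean with its SD (n = 3). Hspd1 peaks at 6 h in both lines, Hspe1 is highest at 24 h, and Trap1 moves up in WT (at 6 h with TMM scaling but not with upper-quartile scaling or library size alone) and down in Nrf1-KO cells.

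The 2 time courses moved the proportion of barrel to lid mRNA. Per kb of transcript, the ratio of Hspd1 to Hspe1 in WT was 1.21, 1.25 and 1.23 in DMSO, 1.83, 1.88 and 1.89 at 6 h, and 0.883, 0.897 and 0.878 at 24 h. For the Nrf1-KO line it was 1.41, 1.35 and 1.38 in DMSO, 2.04, 1.99 and 2.01 at 6 h, and 1.16, 1.09 and 1.0 at 24 h. In both lines every 6 h library was above and every 24 h library below the DMSO libraries. The log2 difference from DMSO was 0.60 at 6 h and -0.47 at 24 h in WT, and 0.55 and -0.35 in Nrf1-KO cells. A two-sided exact permutation test gave p = 0.1 for each, the smallest that 3 against 3 libraries allow, so the threshold could not be reached. The absolute ratio depends on the transcript length used. With the merged exons of each gene in place of its principal transcript, an alternative chosen after the data were seen, the mean in Nrf1-KO cells at 6 h was 3.52 in place of 2.01, and the changes between groups stayed the same by construction.

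**Figure D2:**
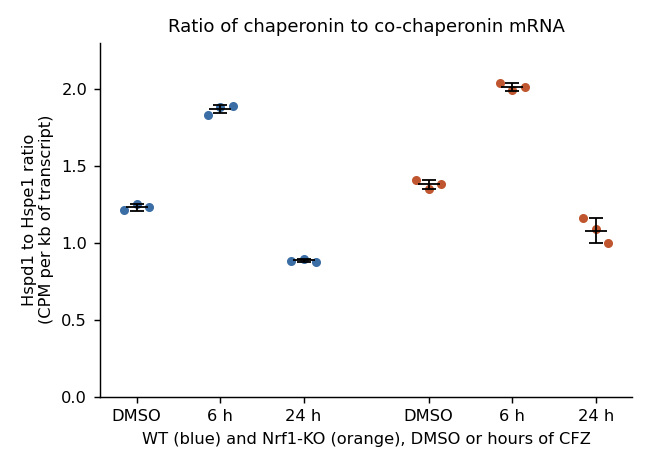
Ratio of Hspd1 to Hspe1, each as CPM per kb of its principal transcript (y axis, from 0), in each library by line and treatment (x axis). Points are libraries and bars the mean with its SD (n = 3). The ratio is highest at 6 h (means 1.87 in WT and 2.01 in Nrf1-KO cells) and lowest at 24 h (0.886 and 1.08).

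Hspa9, the mtHSP70, is the import motor's ATPase and a folding chaperone of the matrix. The WT libraries stood at 951.4, 983.1 and 970.4 CPM in DMSO, at 1128, 1136 and 1113 CPM at 6 h, and at 973.5, 1010 and 1006 CPM at 24 h. Libraries of the Nrf1-KO cells held 800.5, 787.1 and 839.6 CPM in DMSO, 1138, 1136 and 1178 CPM at 6 h, and 960.8, 991.3 and 996.4 CPM at 24 h. The lines were apart in DMSO, where Hspa9 was lower in Nrf1-KO cells by a log2 difference of -0.26 (SE 0.032, adjusted p = 4.5e-08). In CFZ the log2 difference between the lines was 0.03 (95% interval -0.03 to 0.1) at 6 h and -0.02 (-0.09 to 0.05) at 24 h, and neither was called. The value at 6 h was called higher in Nrf1-KO cells with upper-quartile scaling (0.08, adjusted p = 0.037) and with library size alone (0.10, adjusted p = 0.0089), and the 3 Nrf1-KO libraries lay at or above the highest WT library. The response was 0.22 (SE 0.032) in WT and 0.51 (SE 0.032) in Nrf1-KO cells at 6 h, a difference of 0.29 (adjusted p = 5.4e-06). At 24 h Hspa9 was not called in WT (0.04, 95% interval -0.02 to 0.11) and was higher by 0.28 (adjusted p = 1.9e-09) in Nrf1-KO cells, a difference of 0.24 (adjusted p = 3.9e-05). The WT value at 24 h became -0.09, and was called lower, with upper-quartile scaling.

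Dnaja3, a J-protein partner of mtHSP70, rose at 6 h in both lines and was lower at 24 h than at 6 h. The WT libraries stood at 71.71, 72.87 and 75.44 CPM in DMSO, at 78.11, 86.14 and 80.59 CPM at 6 h, and at 65.57, 67.82 and 74.07 CPM at 24 h. The corresponding Nrf1-KO values were 78.21, 76.06 and 79.62 CPM in DMSO, 96.27, 100.2 and 99.64 CPM at 6 h, and 65.63, 69.9 and 67.04 CPM at 24 h. The log2 fold change at 6 h was 0.16 (SE 0.045, adjusted p = 0.0025) in WT and 0.34 (SE 0.044, adjusted p = 5.2e-08) in Nrf1-KO cells. The WT value fell to 0.05 with upper-quartile scaling and to 0.02 with library size alone, and was then not called. At 24 h Dnaja3 was lower in Nrf1-KO cells (-0.21, SE 0.044, adjusted p = 7.1e-05) and not called in WT (-0.08, 95% interval -0.17 to 0.02). The WT value was called lower without WT DMSO replicate 1 or without WT 24 h replicate 3 (-0.13 for each). The difference between the lines' responses was 0.18 at 6 h (SE 0.063, adjusted p = 0.022). It was not called without WT DMSO replicate 1 (0.17) or 3 (0.16), WT 6 h replicate 1 (0.12) or 3 (0.14), Nrf1-KO DMSO replicate 2 (0.16) or Nrf1-KO 6 h replicate 2 (0.17). At 24 h it was -0.13 (adjusted p = 0.075) and was called without WT 24 h replicate 1 or Nrf1-KO 24 h replicate 2 (-0.16 for each). Of the exonic bases of Dnaja3, 4.09% overlap Vasn on the same strand and 3.91% overlap Coro7 on the opposite strand.

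Trap1 was the chaperone whose change had opposite signs in the 2 lines. The WT libraries stood at 125.7, 128 and 128.1 CPM in DMSO, at 136, 136 and 135.7 CPM at 6 h, and at 141.1, 149 and 145.5 CPM at 24 h. The Nrf1-KO libraries stood at 145.8, 144.9 and 145.5 CPM in DMSO, at 118.7, 123.9 and 128.5 CPM at 6 h, and at 97.18, 98.86 and 101.2 CPM at 24 h. Every Nrf1-KO library was above every WT library in DMSO and below every WT library of the same time in CFZ. At 24 h Trap1 rose by 0.19 (SE 0.034, adjusted p = 4.9e-06) in WT, where the value was 0.06 and not called with upper-quartile scaling. It fell by 0.55 on the log2 scale (SE 0.034, adjusted p = 6.2e-16) in Nrf1-KO cells. The difference between the responses was -0.75 (SE 0.048, adjusted p = 1.5e-14), the largest in size among the 10 genes, and at 6 h it was -0.33 (SE 0.049, adjusted p = 1.6e-06). At 6 h the fold change was 0.09 (adjusted p = 0.014) in WT, and scaling by upper quartile made it -0.01 and by library size alone -0.04. The Nrf1-KO value at that time was -0.24 (SE 0.035, adjusted p = 3.9e-07). The rise from 6 h to 24 h in WT (0.10, adjusted p = 0.012) was not called without any single WT 6 h replicate (0.06 for each) or without WT 24 h replicate 2 (0.08). The gene lies on chromosome 16 from 4039971 to 4077827, on the minus strand, and Dnaja3 lies on the same chromosome from 4639989 to 4707695, on the plus strand.

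Of the proteases, all 5 rose in the WT cells at both times, against 35.6% and 43.2% of all genes. In the Nrf1-KO cells 2 of the 5 were called higher at 6 h, Lonp1 and Yme1l1, against 34.5% of all genes, and the sign of Yme1l1 flipped with library size alone. At 24 h, 3 of the 5 were called higher, Lonp1, Clpp and Afg3l2, against 44.4% of all genes, and the calls for Clpp (0.09) and Afg3l2 (0.03) were lost with library size alone. In CFZ all 5 were lower in the Nrf1-KO cells than in WT at 6 h and at 24 h, with no overlap of libraries, which held for 65.4% and 72.6% of all genes in either direction. There the median log2 differences were -0.46 and -0.55 and the medians of all genes 0.

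Lonp1, the matrix AAA+ protease that removes misfolded and oxidised proteins, had a larger response in the Nrf1-KO than in the WT cells. The WT libraries stood at 231.2, 245.2 and 238.3 CPM in DMSO, at 272.7, 266.9 and 271.4 CPM at 6 h, and at 326, 334.2 and 334.3 CPM at 24 h. Those of the Nrf1-KO line stood at 164.6, 159.5 and 161.3 CPM in DMSO, at 218.2, 228.9 and 228.4 CPM at 6 h, and at 270.2, 265.1 and 263.3 CPM at 24 h. The groups did not overlap between times or lines at any matched treatment, and the gap between the lines was present in DMSO (log2 difference -0.56, SE 0.032, adjusted p = 2e-15). It was -0.26 at 6 h (SE 0.033) and -0.32 at 24 h (SE 0.032). The response to CFZ was larger in the Nrf1-KO cells, at 0.48 against 0.18 at 6 h and 0.72 against 0.48 at 24 h. The differences were 0.29 (SE 0.046, adjusted p = 5.7e-06) and 0.24 (SE 0.045, adjusted p = 3.2e-05). The WT value at 6 h was 0.05 and not called with library size alone. Lonp1 lies on chromosome 17 from 56614297 to 56626887, on the minus strand.

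The 2 parts of CLPXP rose in WT and little or not at all in Nrf1-KO cells. For Clpp, the peptidase, the WT libraries stood at 28.5, 28.4 and 28.84 CPM in DMSO, at 44.82, 40.12 and 44.74 CPM at 6 h, and at 48.08, 55.28 and 49.65 CPM at 24 h. The Nrf1-KO libraries held 30.47, 27.5 and 32.31 CPM in DMSO, 30.38, 30.97 and 33.21 CPM at 6 h, and 35.77, 34.56 and 39.64 CPM at 24 h. The lines overlapped in DMSO, and in CFZ every Nrf1-KO library was below every WT library of the same time. The log2 fold change in WT was 0.60 (SE 0.065, adjusted p = 1.3e-09) at 6 h and 0.85 (SE 0.063, adjusted p = 8e-14) at 24 h. For the Nrf1-KO line it was 0.04 (95% interval -0.1 to 0.19) at 6 h, not called, and 0.27 (SE 0.063, adjusted p = 0.00025) at 24 h. The differences between the responses were -0.55 (SE 0.095, adjusted p = 2.3e-05) and -0.58 (SE 0.089, adjusted p = 1.8e-06). Without Nrf1-KO 24 h replicate 3 the Nrf1-KO value at 24 h was 0.18, and the rise from 6 h to 24 h (0.23, adjusted p = 0.0042) was 0.15 and not called. Without WT 6 h replicate 2 the rise from 6 h to 24 h in WT was 0.16 in place of 0.25.

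For Clpx, the unfoldase, the WT libraries stood at 41.54, 38.44 and 39.18 CPM in DMSO, at 50.05, 54.54 and 49.56 CPM at 6 h, and at 54.28, 55.76 and 58.14 CPM at 24 h. Values in Nrf1-KO libraries were 30.99, 30.11 and 30.81 CPM in DMSO, 30.89, 31.2 and 36.09 CPM at 6 h, and 29.65, 33.67 and 37.1 CPM at 24 h. Clpx was lower in the Nrf1-KO cells in DMSO (log2 difference -0.38, SE 0.061, adjusted p = 4.7e-06), and it was lower by -0.67 at 6 h and -0.74 at 24 h. The log2 fold change in WT was 0.37 (SE 0.059, adjusted p = 1.9e-06) at 6 h and 0.50 (SE 0.058, adjusted p = 2.7e-09) at 24 h. In Nrf1-KO cells it was 0.08 (95% interval -0.06 to 0.22) and 0.13 (95% interval 0.0 to 0.26), neither called, and the value at 24 h was called without Nrf1-KO 24 h replicate 1 (0.17). The differences between the responses were -0.29 (SE 0.091, adjusted p = 0.011) and -0.37 (SE 0.086, adjusted p = 0.0005). The small rise from 6 h to 24 h in WT (0.13, adjusted p = 0.046) was not called without WT 6 h replicate 1 (0.07), 2 (0.14) or 3 (0.06) or without WT 24 h replicate 2 (0.14) or 3 (0.10). Clpp lies on chromosome 17 from 56990305 to 56996188 and Clpx on chromosome 9 from 65294260 to 65330658, both on the plus strand.

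**Figure D3:**
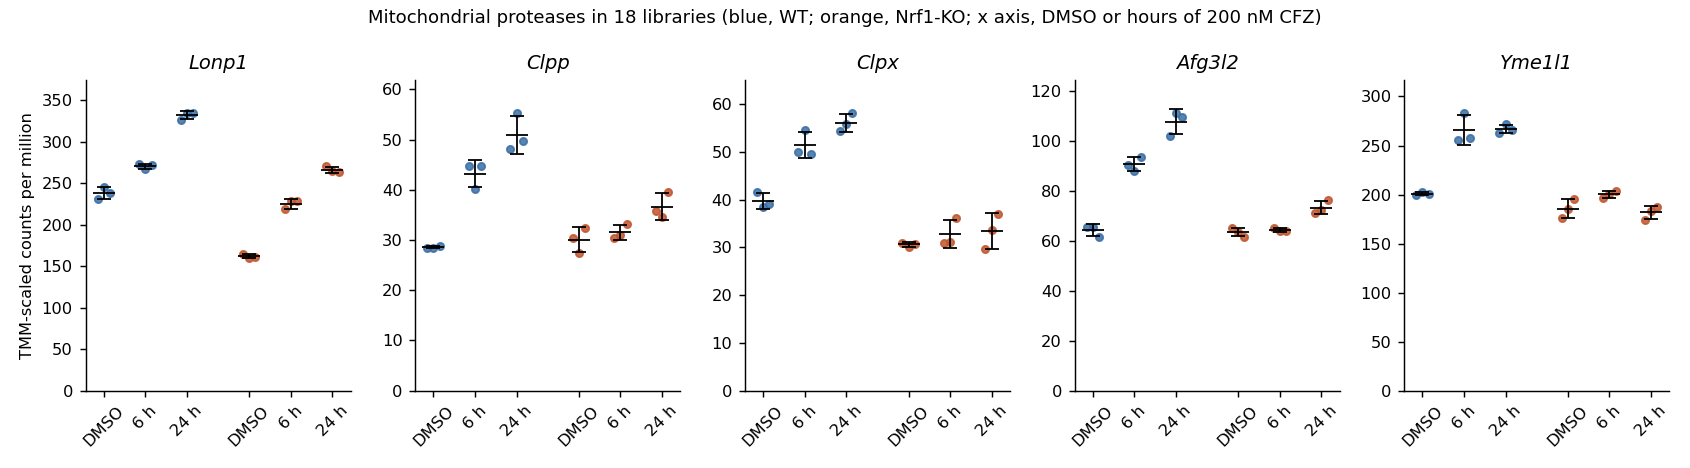
TMM-scaled CPM (y axes, from 0) of the 5 mitochondrial proteases in each of the 18 libraries, by line and treatment (x axes). Points are libraries and bars the mean with its SD (n = 3). In WT all 5 are higher in CFZ than in DMSO, and in CFZ the Nrf1-KO libraries of each gene lie below the WT libraries of the same time.

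The 2 inner-membrane proteases also rose more in WT. For Afg3l2, the m-AAA subunit, the WT libraries stood at 65.42, 65.6 and 61.52 CPM in DMSO, at 90.39, 87.82 and 93.46 CPM at 6 h, and at 101.8, 111 and 109.6 CPM at 24 h. Libraries of the Nrf1-KO cells held 64.88, 63.53 and 61.61 CPM in DMSO, 65.16, 63.71 and 64.03 CPM at 6 h, and 71.05, 72.34 and 76.04 CPM at 24 h. In DMSO the lines overlapped (log2 difference -0.02, 95% interval -0.11 to 0.06). The log2 fold change in WT was 0.49 (SE 0.042, adjusted p = 6e-12) at 6 h and 0.75 (SE 0.041, adjusted p = 4.1e-17) at 24 h. For the Nrf1-KO line it was 0.03 (95% interval -0.07 to 0.12) at 6 h, not called, and 0.21 (SE 0.042, adjusted p = 3.3e-05) at 24 h. The differences between the responses were -0.47 (SE 0.062, adjusted p = 2.9e-07) and -0.54 (SE 0.059, adjusted p = 3.2e-09). Spg7, which encodes another subunit of the m-AAA protease and was named after its values were seen, fell by 0.85 on the log2 scale in WT and by 1.20 in Nrf1-KO cells at 24 h.

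For Yme1l1, the i-AAA protease, the WT libraries stood at 199.3, 202.5 and 200.3 CPM in DMSO, at 255.6, 283.1 and 257.9 CPM at 6 h, and at 263.1, 271.7 and 266 CPM at 24 h. The corresponding Nrf1-KO values were 175.9, 185.3 and 195.1 CPM in DMSO, 196.4, 200.4 and 203.7 CPM at 6 h, and 174.3, 183.2 and 187.7 CPM at 24 h. In WT the level reached at 6 h was held at 24 h, with log2 fold changes of 0.40 (SE 0.039, adjusted p = 1e-10) and 0.41 (SE 0.039, adjusted p = 3.1e-11). In the Nrf1-KO cells they were 0.11 (SE 0.041, adjusted p = 0.021) at 6 h and -0.03 (95% interval -0.11 to 0.05) at 24 h, the second not called. The Nrf1-KO value at 6 h was -0.01 with library size alone, and it was not called without Nrf1-KO DMSO replicate 1 (0.07) or Nrf1-KO 6 h replicate 2 (0.11) or 3 (0.09). The differences between the responses were -0.30 (SE 0.056, adjusted p = 7.7e-05) and -0.44 (SE 0.056, adjusted p = 4.3e-08). In DMSO Yme1l1 was lower in the Nrf1-KO cells by -0.11 (adjusted p = 0.017), a call lost without WT DMSO replicate 1 (-0.10) or 2 (-0.10) or Nrf1-KO DMSO replicate 1 (-0.08). Yme1l1 lies on chromosome 2 from 23156369 to 23199260, on the plus strand, and both Afg3l2 and Hspa9 lie on chromosome 18.

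Set side by side, the difference between the lines' responses was positive for some of the genes and negative for others. At 6 h it was called for all 10 genes, with 5 higher in the Nrf1-KO cells (Hspd1, Hspe1, Hspa9, Dnaja3 and Lonp1) and 5 lower (Trap1, Clpp, Clpx, Afg3l2 and Yme1l1), against 19.8% and 18.4% of all genes. At 24 h the same genes were called in the same directions except Dnaja3, so that 4 were higher and 5 lower, against 29.7% and 30% of all genes. For the 4 genes with the larger Nrf1-KO response at 24 h the differences ran from 0.24 to 0.60, and for the 5 with the smaller one from -0.37 to -0.75. In levels, 1 of the 10 genes was higher and 4 were lower in Nrf1-KO than in WT DMSO, against 25.7% and 29.1% of all genes. At 6 h of CFZ 3 were higher and 6 lower (30.5% and 30.8% of all genes), and at 24 h 2 and 6 (35.6% and 36.4%). Hspa9 and Lonp1 had larger Nrf1-KO responses from lower DMSO levels, and neither was called above WT in CFZ, apart from Hspa9 at 6 h under the other 2 scalings named above, whereas Hspd1 and Hspe1 were above WT in CFZ at both times. Between 6 h and 24 h, 6 of the 10 rose and 3 fell in WT (36.9% and 35.4% of all genes) and 4 rose and 5 fell in Nrf1-KO cells (38.7% and 38.3%).

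**Figure D4:**
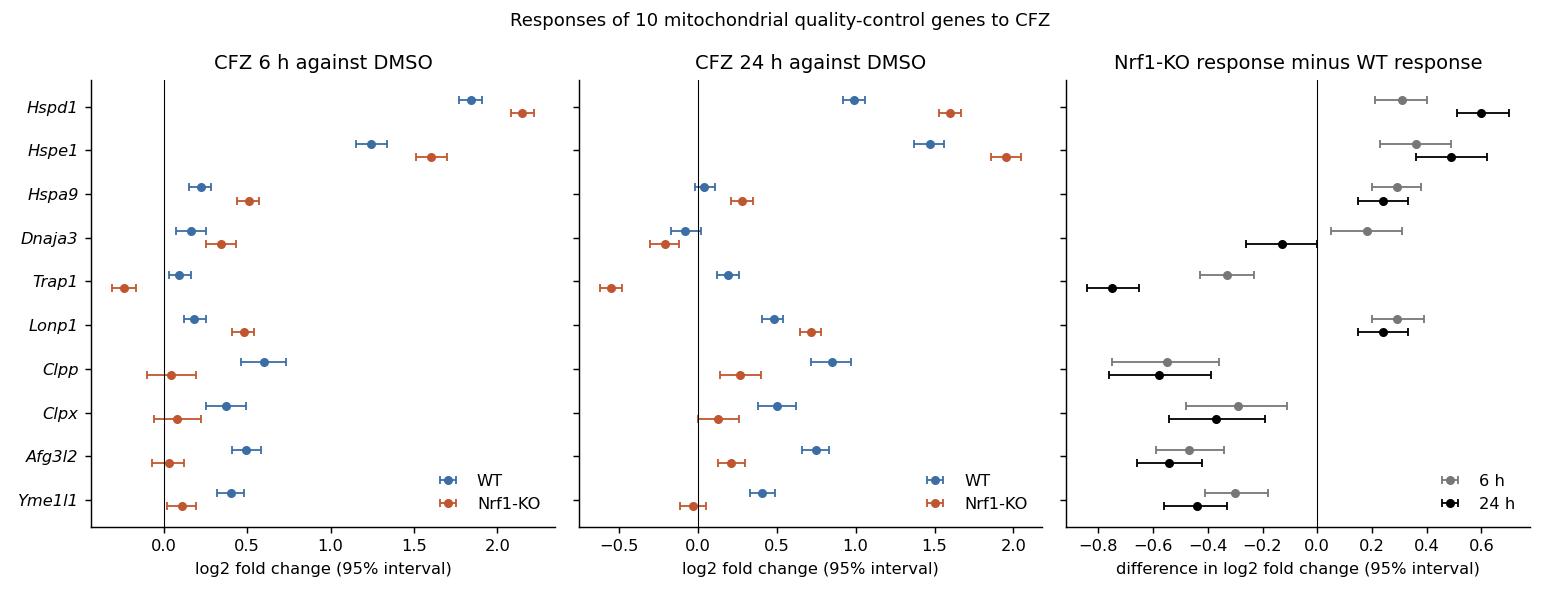
Log2 fold change of each gene with CFZ at 6 h and 24 h against DMSO in WT and Nrf1-KO cells, and the Nrf1-KO response minus the WT response (x axes, points with 95% intervals from edgeR, 3 libraries a group). The right panel has Hspd1, Hspe1, Hspa9 and Lonp1 above 0 and Trap1, Clpp, Clpx, Afg3l2 and Yme1l1 below 0 at both times, and Dnaja3 on different sides of 0. With TMM scaling Trap1 in WT and Yme1l1 in Nrf1-KO cells lie just above 0 at 6 h, where Trap1 falls below 0 with upper-quartile scaling or library size alone and Yme1l1 with library size alone.

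Levels were compared between genes as CPM per kb of the principal transcript. In WT DMSO the order was Hspa9 (318 ± 5.24 CPM per kb, SD, n = 3), Hspd1 (265 ± 10.4), Hspe1 (215 ± 5.31), Lonp1 (80.7 ± 2.37), Trap1 (54.9 ± 0.588), Yme1l1 (42.6 ± 0.352), Clpp (29.1 ± 0.233), Dnaja3 (27.7 ± 0.722), Afg3l2 (20.7 ± 0.745) and Clpx (13.8 ± 0.56), and no neighbours overlapped. The chaperonin pair and mtHSP70 were above the other 7 genes in every group. At 6 h of CFZ Hspd1 was first, with 950 ± 22.2 CPM per kb in WT and 1240 ± 26.4 in Nrf1-KO cells. At 24 h Hspe1 was first in WT (595 ± 9.78), and in Nrf1-KO cells Hspd1 (845 ± 21.1) and Hspe1 (784 ± 72.3) overlapped. In Nrf1-KO DMSO Hspd1 and Hspa9 overlapped, as did Clpp and Dnaja3, and Lonp1 (54.8 ± 0.867) was below Trap1 (62.7 ± 0.196), the reverse of WT. Other overlapping neighbours were Trap1 with Yme1l1 and Dnaja3 with Afg3l2 in WT at 6 h, and Yme1l1 with Clpp at 24 h in both lines. Clpx had the lowest level in all 6 groups, at 11.6 ± 1.29 CPM per kb in Nrf1-KO cells at 24 h against 37.3 ± 2.7 for its partner Clpp. With merged exons as the length, 27 of the 60 ranks differed. Hspd1 was then first in all 6 groups, above Hspa9 in WT DMSO (243 against 225 CPM per kb) and above Hspe1 in WT at 24 h (483 against 312), and Afg3l2 was last.

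Over the means of the 6 groups, the genes fell into more than 1 pattern. Pearson's r of log2 CPM was 0.98 for Clpp with Afg3l2, 0.96 for Clpx with Yme1l1 and 0.87 for Hspd1 with Hspe1, and it was -0.42 for Hspd1 with Trap1. These values describe 6 points that share their libraries. Among the 11761 other genes tested Afg3l2 was 28th in likeness to Clpp, and Clpp was 30th for Afg3l2, while Hspe1 was 366th for Hspd1. The genes outside the 10 with a course most like that of Hspd1 were Fermt3 (r = 0.997), the cytosolic J-protein gene Dnaja1 (0.996) and the J-protein gene Dnajb1 (0.995). For Hspe1 they were Esco1 (0.996), Spata7 and Fbxl12 (0.995 each), and for Hspa9 Tbrg1 (0.988), Rbbp8 and Zfp689 (0.981 each). For Trap1 they were Inf2 (0.995), 1500032L24Rik (0.985) and Lysmd2 (0.983), and for Dnaja3 Golga3 (0.992), 9230114K14Rik (0.99) and Bag5 (0.987). For Lonp1 they were Trip4 (0.992), Ubr1 (0.986) and Sugt1 (0.985). For Clpp they were Znhit3 (0.995), the proteasome subunit gene Psmd2 (0.993) and Gpatch2 (0.992), and for Yme1l1 the proteasome subunit gene Psmd6 (0.996), Capza1 (0.996) and Fetub (0.995). For Clpx they were Setdb1 (1.0), Atp2b4 (0.997) and Dcaf7 (0.994), and for Afg3l2 Gtf3c4 (0.997), Rab3gap1 and Ap3s2 (0.996 each).

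The mitochondrial chaperones were set beside relatives that work in the cytosol or the endoplasmic reticulum (ER). All 14 such genes rose with CFZ in both lines at both times, with median log2 fold changes of 1.83 and 1.48 in WT and 1.86 and 2.09 in Nrf1-KO cells at 6 h and 24 h. Dnaja2 in Nrf1-KO cells at 24 h (0.19) was the weakest of these, and its call was lost with library size alone. In the HSP70 family the cytosolic Hspa8 rose by 3.09 (SE 0.039) in WT and 3.59 (SE 0.04) in Nrf1-KO cells at 24 h, and the ER chaperone gene Hspa5 by 2.13 (SE 0.036) and 2.96 (SE 0.037), against 0.04 and 0.28 for Hspa9. The cytosolic Hspa4 rose less than these, by 0.87 and 0.76. The stress-inducible Hspa1b rose by 1.55 and 3.43. The difference between the lines' responses was 1.89 (SE 0.072, adjusted p = 4e-20), and for Hspa1a, its near-identical copy, it was 1.87 (SE 0.25, adjusted p = 9.4e-08). Reads could be split between these copies. In the HSP90 family the cytosolic Hsp90aa1 rose by 2.31 and 2.85 and the ER gene Hsp90b1 by 0.64 and 0.77, against 0.19 and -0.55 for Trap1. Among the DNAJA genes Dnaja1 rose by 1.43 and 2.03, Dnaja4 by 1.98 and 2.16 and Dnaja2 by only 0.31 and 0.19. Dnaja3 stood at -0.08 and -0.21. The chaperonin genes of the cytosol, Cct2 (1.11 and 1.63) and Tcp1 (0.29 and 0.46), lay on both sides of Hspd1 (0.99 and 1.60). At 24 h, 11 of the 14 had a larger and 2 a smaller response in the Nrf1-KO cells, against 29.7% and 30% of all genes. With library size alone 9 were larger, as Hsp90b1 (0.05) and Tcp1 (0.09) were not called. The smaller responses were those of Hspa4 (-0.10, adjusted p = 0.047) and Dnaja2 (-0.13, adjusted p = 0.033). Neither was called with upper-quartile scaling, without the filter, with the compared groups only, or without any of WT DMSO replicate 1, WT 24 h replicate 2, Nrf1-KO DMSO replicate 1 and Nrf1-KO 24 h replicate 1. A single call was left, 1 of the 2, with DESeq2's size factors in edgeR and without any of WT DMSO replicates 2 and 3, WT 24 h replicates 1 and 3, Nrf1-KO DMSO replicates 2 and 3 and Nrf1-KO 24 h replicate 3.

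**Figure D5:**
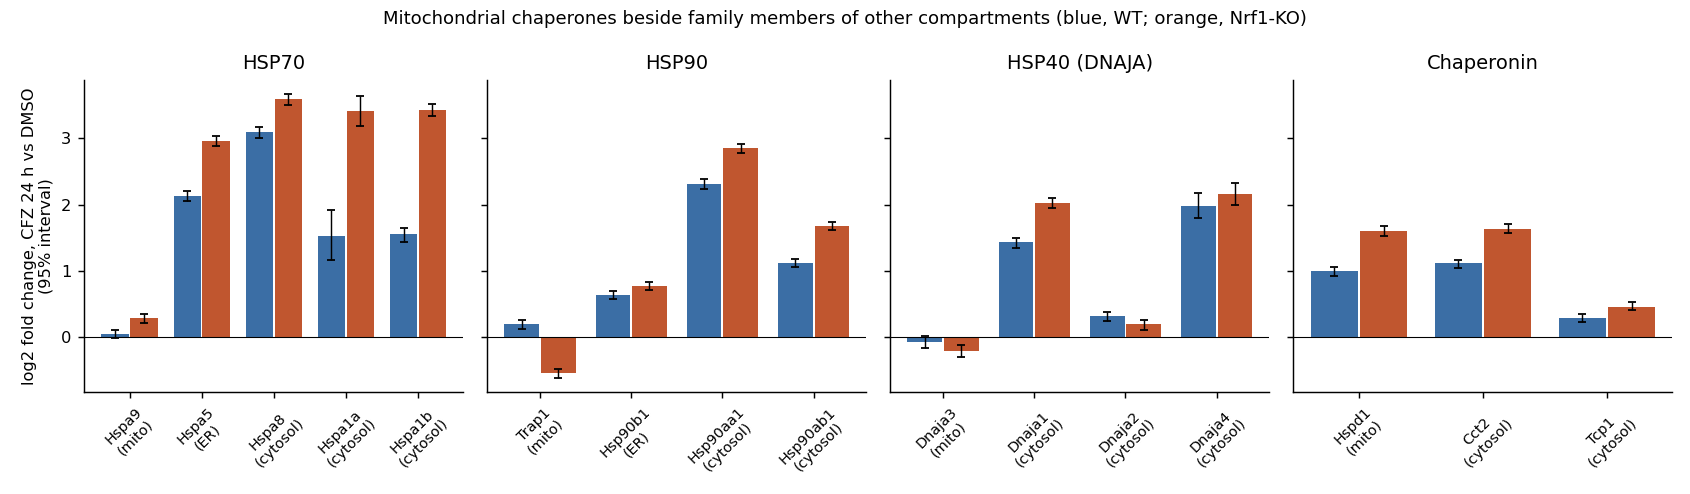
Log2 fold change with CFZ at 24 h against DMSO (y axis, bars from 0 with 95% intervals from edgeR, 3 libraries a group) for mitochondrial chaperones and relatives of the cytosol or ER, in WT (blue) and Nrf1-KO (orange). Hspa9, Trap1 and Dnaja3 lie between -0.55 and 0.28. The relatives run from 0.29 (Tcp1) in WT and 0.19 (Dnaja2) in Nrf1-KO cells up to 3.09 and 3.59 (Hspa8). Hspd1 (0.99 and 1.60) lies between Tcp1 and Cct2.

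The partners of these chaperones and proteases in mitochondria held genes that rose and genes that fell. The counts below stand against 43.2% of all genes higher and 40.5% lower in WT at 24 h, 44.4% and 41.1% in Nrf1-KO cells, and 29.7% and 30% with a larger and a smaller response in the Nrf1-KO cells. Of 11 genes for cochaperones of mtHSP70 and its import motor, 4 rose and 5 fell in WT at 24 h (median -0.05), and 3 rose and 6 fell in Nrf1-KO cells (median -0.16). Grpel2, a nucleotide exchange factor of mtHSP70, had the largest rise in both lines (1.31, SE 0.063, and 0.98, SE 0.059). The largest falls were those of the J-protein genes Dnajc19 in WT (-0.84, SE 0.093) and Dnajc30 in Nrf1-KO cells (-1.64, SE 0.1). In this list 2 responses were larger and 6 smaller in Nrf1-KO cells, from 0.98 for Dnajc28 (SE 0.34, adjusted p = 0.015, and 0.66 and not called without Nrf1-KO 24 h replicate 3) to -1.03 for Dnlz, an escort protein of mtHSP70 (SE 0.12, adjusted p = 4.6e-09).

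Of 17 other mitochondrial proteases and their partners, 9 rose and 7 fell in WT at 24 h (median 0.24), and 9 rose and 6 fell in Nrf1-KO cells (median 0.16), where 5 rose with library size alone. Oma1, an inner-membrane protease that is activated by stress, fell most in both lines (-2.52, SE 0.13, and -2.64, SE 0.12). The largest rises were those of Pmpcb, a subunit of the peptidase that removes import signals, in WT (0.70, SE 0.042) and of the aminopeptidase gene Xpnpep3 in Nrf1-KO cells (0.62, SE 0.059). The response was larger in Nrf1-KO cells for 1 of the 17, the prohibitin gene Phb2 (0.27, SE 0.047, adjusted p = 1.3e-05), and smaller for 7, most of all for Htra2, a protease of the intermembrane space (-1.22, SE 0.067, adjusted p = 3.7e-16).

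Of 12 genes of the TOM and TIM import channels, 6 rose and 2 fell in WT at 24 h (median 0.15), and 5 rose and 6 fell in Nrf1-KO cells (median -0.09). In WT 4 fell with upper-quartile scaling, with library size alone, without the filter and with the compared groups only, and in Nrf1-KO cells 3 rose with library size alone. Tomm40, the pore of the outer membrane, rose most in WT (0.77, SE 0.041) and the receptor gene Tomm20 in Nrf1-KO cells (0.82, SE 0.039), and Timm17b fell most in both (-1.59, SE 0.094, and -1.79, SE 0.099). None of the 12 had a larger response in Nrf1-KO cells at 24 h by edgeR, at an unadjusted p under 0.05 or by DESeq2, though 1 did without Nrf1-KO 24 h replicate 1, and 6 had a smaller one, from -0.27 for Tomm70a (SE 0.049) to -0.66 for Tomm6 (SE 0.072).

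Among 12 genes tied to mitochondrial stress signalling, 8 rose and 4 fell in WT at 24 h (median 0.61), and 8 rose and 3 fell in Nrf1-KO cells (median 0.37). Atf5, a transcription factor linked to the mitochondrial unfolded protein response, fell in both lines, by 1.91 on the log2 scale in WT (SE 0.036, adjusted p = 1.3e-29) and by 2.23 in Nrf1-KO cells (SE 0.036, adjusted p = 2.3e-31). Other genes of this list, named after their values were seen, went either way at 24 h. In WT and Nrf1-KO cells Atf4 rose (0.40 and 0.35), as did Hsf1 (1.03 and 0.61), and Cebpb fell (-0.71 and -1.01). Jun rose most in WT (1.58, SE 0.048). Ddit3, which encodes CHOP, rose most in Nrf1-KO cells (3.28, SE 0.045) and was the single gene of this list with a larger response there (1.81, SE 0.065, adjusted p = 9.8e-21), while 5 had a smaller one, down to -0.54 for the kinase gene Eif2ak2 (SE 0.056). CHOP is not particular to mitochondrial stress, and the study counts it in the PERK branch of the unfolded protein response of the ER.

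For 14 genes of the citric acid cycle, the respiratory chain and other abundant mitochondrial proteins, 5 rose and 5 fell in WT at 24 h (median 0.01), where 8 fell with upper-quartile scaling, and 3 rose and 9 fell in Nrf1-KO cells (median -0.48). Cs, the citrate synthase, rose most in Nrf1-KO cells (0.46, SE 0.03). The largest falls were those of the ADP/ATP carrier gene Slc25a5 in WT (-1.16, SE 0.039) and of Sdha, a subunit of succinate dehydrogenase, in Nrf1-KO cells (-1.24, SE 0.034). At 24 h 10 of the 14 had a smaller response in Nrf1-KO cells, most of all the complex I gene Ndufs1 (-0.79, SE 0.05, adjusted p = 1.4e-14), and 1 a larger one, Cs (0.14, SE 0.043, adjusted p = 0.0056), whose call was lost with library size alone. There were 2 larger ones with upper-quartile scaling or without Nrf1-KO DMSO replicate 2, and 3 without Nrf1-KO 24 h replicate 1. The part of these lower levels in the results on Clpp, Clpx, Afg3l2, Yme1l1 and Trap1 was not tested.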

How the data were processed

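Per the labels and the methods of the study, the authors prepared stranded mRNA libraries for paired-end sequencing and ran the RNA Express app, which joins STAR and DESeq2. Versions, genome build, annotation and use of strand are not given in the sources used here, so reads of overlapping genes could be shared. They deposited raw counts per gene symbol and library, 23420 rows, of which 6577 had no count. From these, edgeR 4.0.16 in R 4.3.3 filtered genes (filterByExpr, minimum count 10, minimum total 15), scaled by TMM and fitted a quasi-likelihood model of the 6 groups over 18 libraries, for 11 comparisons. Calls are an adjusted p under 0.05 over 11762 genes, with no minimum fold. The interaction is the Nrf1-KO response minus the WT response. Replicates varied by a biological coefficient of 3.13% (edgeR's common estimate), which lets small differences pass. No pair of replicates agreed within sampling noise (chi-square per degree of freedom 1.438 to 8.469), and all 18 libraries were nearest to their own group. Intervals are 95%.

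The members, the gene lists and the tests were chosen with earlier results of these data known. The genes named were the 10 members, Nfe2l1, the called genes with the largest and smallest change of each list at 24 h, relatives of the chaperones, and for each member the 3 genes with the highest r over 6 group means, and a gene that this rule names is not reported here. The lengths used, the ratios of partners, the motifs and the genes Spg7, Atf4, Hsf1 and Cebpb were chosen after values had been seen. Positions and lengths came from GENCODE M21 on GRCm38 and promoter windows, 250 bases before to 50 after a start, from RefSeq on GRCm38.p6. Results were recomputed with DESeq2 1.42.0, with scaling by upper quartile, by DESeq2's size factors or by library size alone, without the filter or with a mean count of at least 10, in the compared groups only, with a replicate block, without each library in turn and with a minimum fold of 2. In simulated counts, edgeR recovered 176 of 200 genes changed 2-fold in the interaction at 24 h, all 163 with a mean count of at least 100 among them. It also called 10 unchanged genes there. The differences between responses of the 10 members were all smaller than 2-fold, and recovery of such smaller changes was not tested.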

Additional observations from a re-analysis of the deposited data

Results flagged for a closer look

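The results flagged are the differences between the lines' responses to CFZ, each tested as the interaction of line and CFZ with edgeR's quasi-likelihood test and Benjamini-Hochberg adjustment. Groups of 3 libraries are too small for the test of a single library far from the others.

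The Nrf1-KO response was the larger one for Hspd1 (0.31 at 6 h and 0.60 at 24 h, on the log2 scale), Hspe1 (0.36 and 0.49), Hspa9 (0.29 and 0.24) and Lonp1 (0.29 and 0.24), and at 6 h for Dnaja3 (0.18).

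It was the smaller one for Clpp (-0.55 at 6 h and -0.58 at 24 h), Clpx (-0.29 and -0.37), Afg3l2 (-0.47 and -0.54) and Yme1l1 (-0.30 and -0.44). For Trap1, with -0.33 at 6 h and -0.75 at 24 h, the Nrf1-KO response at 24 h was a fall and the WT response a rise.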

How the results depend on the processing

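Of 1660 recomputed single values of the 10 genes, 1557 kept their direction and their side of the threshold, 43 were no longer called, 29 became called and 31 changed sign, and of 1990 of the other named genes 1942, 36, 1 and 11 did so. In CFZ against DMSO the median of all genes, -0.02 and 0.02 in WT and -0.01 and 0.03 in Nrf1-KO cells at 6 h and 24 h, became -0.13, -0.11, -0.08 and -0.08 in that order with upper-quartile scaling and -0.15, -0.08, -0.12 and -0.15 with library size alone. The share of calls that were higher went from 49.6% to 37.9% and 35.4% in WT at 6 h, and with library size alone from 49.7% to 36.4% and from 52% to 41.6% in Nrf1-KO cells at 6 h and 24 h, from 46.9% to 57.7% and from 49.8% to 60.8% between the lines in DMSO and at 6 h, and from 49.8% to 40% in the interaction at 24 h. The lowest count of the 10 genes in a library was 277, and differences smaller than these shifts changed sign or call in several cases.

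With upper-quartile scaling the values that changed sign were Trap1 in WT at 6 h (-0.01), Hspa9 in WT at 24 h (-0.09), Yme1l1 in WT from 6 h to 24 h (-0.02), Clpp (-0.03) and Afg3l2 (-0.05) in Nrf1-KO cells at 6 h, and Hspa9 (0.02) and Dnaja3 (0) between the lines at 24 h. With library size alone they were Trap1 in WT at 6 h (-0.04), Hspa9 in WT at 24 h (-0.06), Clpp (-0.07), Clpx (-0.04), Afg3l2 (-0.09) and Yme1l1 (-0.01) in Nrf1-KO cells at 6 h, Clpx in Nrf1-KO cells at 24 h (-0.05) and from 6 h to 24 h (-0.02), Afg3l2 between the lines in DMSO (0.02) and Nfe2l1 in Nrf1-KO cells at 24 h (0). Without the filter they were Hspa9 in WT at 24 h (-0.01), Yme1l1 in WT from 6 h to 24 h (-0.02), Clpp (0) and Afg3l2 (-0.02) in Nrf1-KO cells at 6 h and Hspa5 in the interaction at 6 h (-0.01), and with the compared groups only Yme1l1 in WT from 6 h to 24 h (0). Leaving out single libraries gave Afg3l2 between the lines in DMSO -0.05 to 0.01, Hspa9 and Dnaja3 between the lines at 24 h -0.04 to 0.01 and -0.07 to 0.02, Hspa9 in WT at 24 h 0 to 0.06, Yme1l1 in WT from 6 h to 24 h -0.06 to 0.02, Clpp in Nrf1-KO cells at 6 h -0.01 to 0.11, Yme1l1 there at 24 h -0.09 to 0.01, Clpx there from 6 h to 24 h -0.03 to 0.11, and in the interaction at 6 h Hspa1a -0.15 to 0.39, Hspa5 -0.03 to 0.04 and Hspa8 0 to 0.08.

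The number of the 10 genes higher in Nrf1-KO than in WT DMSO, 1, was 2 with DESeq2, without the filter and with a mean count of at least 10, 3 with upper-quartile scaling, DESeq2's size factors in edgeR, library size alone and the compared groups only, and 1 to 2 with single libraries left out. It was 2 without WT DMSO replicate 2 or Nrf1-KO DMSO replicate 2. The number lower in WT at 24 h, 0, was 2 with upper-quartile scaling, 1 with library size alone, without the filter and with the compared groups only, and 0 to 1 with single libraries left out (1 without WT DMSO replicate 1 or WT 24 h replicate 3). A 2-fold minimum left 2 genes higher at 6 h in each line, 1 at 24 h in WT and 2 in Nrf1-KO cells, and every other count of the 10 genes was 0. The ratio of Hspd1 to Hspe1 in CFZ against DMSO could not change direction with a library left out, because the libraries of the compared groups did not overlap. The replicate numbers carried no shared deviation (correlations averaged 0.0136 over 45 pairs, from -0.0494 to 0.0972). With the replicate block 2 genes were higher in Nrf1-KO than in WT DMSO, as Hspd1 became called, Clpx in Nrf1-KO cells at 24 h became called, and no other call of the 10 genes changed.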
